A study of Mus musculus with 15 samples.

Results

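Tissue factor (F3), tissue factor pathway inhibitor (Tfpi), von Willebrand factor (Vwf), the A subunit of coagulation factor XIII (F13a1) and protein S (Pros1) were followed in mouse hearts as a set of 5 genes chosen by symbol, with earlier results of these data known. All 5 were among the 16658 genes listed in the expression table and all 5 passed the filter on low values. The tissue is described for all samples together, as heart holding the infarct and the muscle around it. The region taken from sham hearts is not given separately here. The mice were male C57BL/6 of 8 to 10 weeks, and the labels list 15 samples in 5 groups. The table analysed holds 11 of them: 3 sham, 2 untreated, 2 given rivaroxaban (a factor Xa inhibitor, 3 mg/kg for 7 days before surgery), 2 given dabigatran (an inhibitor of thrombin, factor IIa, 10 mg/kg for 7 days) and 2 given activated protein C (aPC, 1 mg/kg, 30 min before surgery). The other 4 samples were not analysed here. The labels give 1 surgical protocol for the whole study: 90 min of ligation of a coronary artery (the left anterior descending), then 24 h of reperfusion, with each drug resumed 2 h after the operation. The labels call the second group only untreated, and no label states separately whether its hearts were operated on or what vehicle they received.

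Tissue factor is the membrane protein that starts coagulation: it binds factor VII, and the complex activates factor X, which leads to thrombin and fibrin. In the heart it is known from muscle cells and from cells around vessels. Tfpi, made largely by endothelial cells, blocks factor Xa and the tissue factor complex. Vwf, a marker of endothelial cells and megakaryocytes, tethers platelets and carries factor VIII. F13a1 encodes the transglutaminase subunit that crosslinks fibrin and is found in resident macrophages, monocytes and platelets. Pros1 encodes the cofactor of both aPC and Tfpi, and is also a ligand of receptors that clear dying cells.

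Values are log2 CPM, read counts scaled to library size by the authors with the trimmed mean of M values (TMM). Differences are on the same log2 scale and carry the standard error from limma after ±, unless SD is named. The adjusted p of limma (Benjamini-Hochberg, 13541 genes) had to be under 0.05 for a call. Nothing in the labels says more of the replicates than that they are separate samples. A p-value of limma sets a difference against the spread between samples within groups, pooled over the 5 groups. Libraries held between 26203566 and 36135006 reads on listed genes. Members were covered by 325 to 844 reads a library for F3, 820 to 1909 for Pros1, 1615 to 4853 for F13a1, 1770 to 3102 for Tfpi and 2274 to 5172 for Vwf. The largest counting error of a single value was therefore 5.55% for F3 and 2.10% for Vwf, which covers sampling of reads only. The 2 untreated libraries stood further apart than replicates of the other groups, with an SD of the log2 difference over tested genes of 0.792 against 0.313 to 0.483. In the aPC libraries Gm42418, a gene that overlaps ribosomal RNA sequence, took 6.73% and 6.78% of reads, against 0.997% to 2.09% elsewhere. Cardiac muscle markers were high in every library: the 8 listed of 10 fixed markers summed to between 58901 and 109673 CPM.

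The upstream sequences of F3 and Tfpi are shown because these are the initiator and its inhibitor, whose levels are set against each other in the results. Each is the 250 bases before the start of transcription, 5′ to 3′ on the gene's strand, from RefSeq on build GRCm38.p6. The F3 window is chr3:121723287-121723536 on the plus strand and the first of the Tfpi windows listed is chr2:84476760-84477009 on the minus strand. Capitals mark matches to motifs searched on both strands: TGANTCA for AP-1 (the dimer of Fos and Jun family proteins), GGGCGG for Sp1 and GCGNGGGCG for Egr1, beside a motif of NF-kB.
F3: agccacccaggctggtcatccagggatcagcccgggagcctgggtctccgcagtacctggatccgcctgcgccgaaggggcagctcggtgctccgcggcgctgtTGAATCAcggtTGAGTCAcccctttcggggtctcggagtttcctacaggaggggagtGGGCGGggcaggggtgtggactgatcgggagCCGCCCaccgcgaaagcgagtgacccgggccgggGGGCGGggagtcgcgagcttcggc
Tfpi: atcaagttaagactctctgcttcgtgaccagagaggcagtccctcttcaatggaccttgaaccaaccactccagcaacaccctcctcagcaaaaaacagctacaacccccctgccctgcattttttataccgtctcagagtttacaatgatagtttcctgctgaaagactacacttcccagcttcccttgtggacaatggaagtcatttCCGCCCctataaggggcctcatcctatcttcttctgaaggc
The F3 window held 2 AP-1 matches, at bases -146 to -140 and -135 to -129 counted from the start, and 3 Sp1 matches. The Tfpi window held 0 AP-1 matches and 1 Sp1 match. Neither held the Egr1 motif or the fixed form of the NF-kB motif that was searched. The F3 window did hold cggagtttcc, which differs from this form in its first letter alone and is not in capitals. Other stretches that differ from this form were not searched in either window. None of these motifs overlapped another as searched in these windows. At least 1 match was present in 6.75% of the 32851 RefSeq promoter windows of this length for AP-1, in 32.7% for Sp1, in 4.70% for Egr1 and in 0.356% for NF-kB. A match describes letters only, and binding was not measured. Windows were matched for 4 of the 5 members; Pros1 had 0 AP-1 and 5 Sp1 matches, and the 2 windows of F13a1 had 0 of either.

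Tissue factor was lowest in untreated hearts. F3 (ENSMUSG00000028128, mm10 chromosome 3, 121723537 to 121735048, plus strand) stood at 4.53, 4.67 and 4.18 log2 CPM in Sham_003, Sham_006 and Sham_007. It stood at 3.33 and 3.82 in untreated libraries Cont_17 and Cont_19, so that both untreated libraries lay below every sham library. Rivaroxaban libraries Riva-313 and Riva-319 had 4.46 and 4.06, dabigatran libraries Dabi-202 and Dabi-204 had 3.95 and 3.97, and aPC libraries aPC-791 and aPC-792 had 4.13 and 4.59. All 6 libraries of drug-treated hearts thus lay above both untreated libraries.

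Between untreated and sham hearts F3 fell by 0.88 ± 0.23 (95% interval -1.38 to -0.38, limma adjusted p = 0.0363), so that the sham level was 1.84 times the untreated level. Against untreated, F3 differed by 0.68 ± 0.25 with rivaroxaban (adjusted p = 0.105), by 0.38 ± 0.25 with dabigatran (adjusted p = 0.311) and by 0.78 ± 0.25 with aPC (adjusted p = 0.0525). None of these 3 differences passed. The order of group means was sham (4.46 ± 0.25, SD, n = 3), aPC (4.36 ± 0.33, SD, n = 2), rivaroxaban (4.26 ± 0.28, SD, n = 2), dabigatran (3.96 ± 0.02, SD, n = 2) and untreated (3.58 ± 0.35, SD, n = 2). No 2 neighbours in that order differed beyond the threshold, with adjusted p of 0.864, 0.858, 0.420 and 0.311. Over all 5 groups together F3 did not pass (F test in limma, adjusted p = 0.0622). The call against sham was lost without Sham_003 (adjusted p = 0.105), Sham_006 (0.128), Cont_17 (0.0641), Riva-313 (0.0525) or Riva-319 (0.0521), while the difference stayed between -1.13 and -0.64. Over the alternatives tried, its adjusted p ran from 0.0303 to 0.252.

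**Figure D1:**
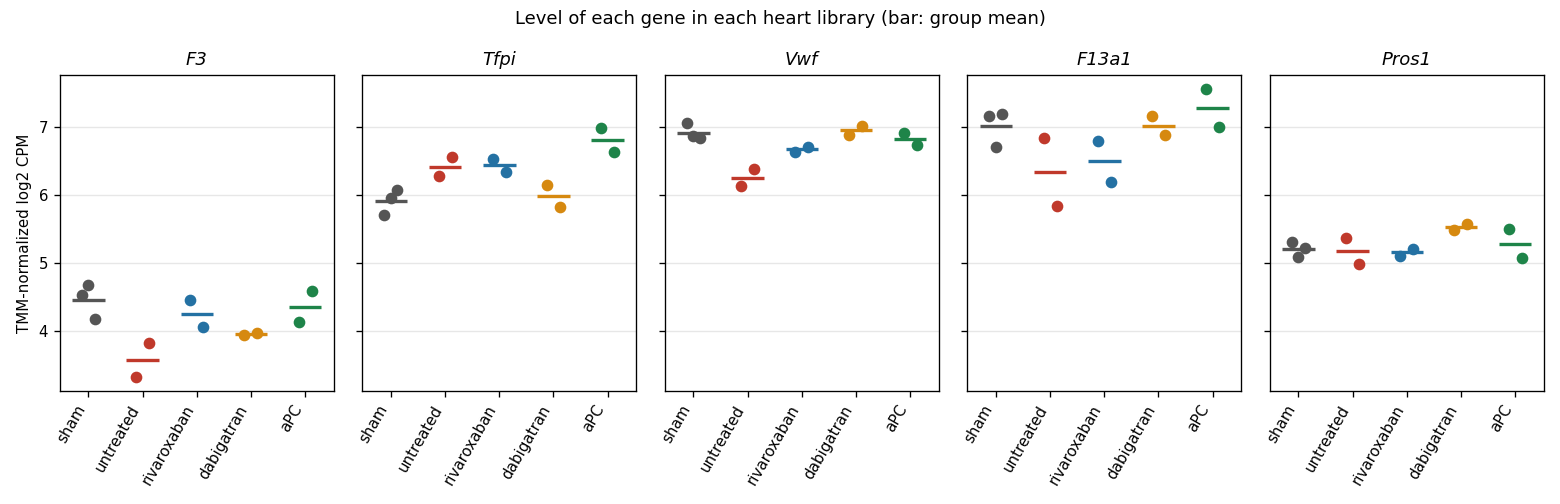
TMM-normalized log2 CPM (y axis) of the 5 genes in each of the 11 heart libraries (points) by group (x axis), with a bar at the group mean. F3 and Vwf are lowest in the 2 untreated libraries, Tfpi is highest in the 2 aPC libraries, and the F13a1 libraries of one group lie up to a full unit apart.

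Tfpi was highest in hearts given aPC. Tfpi (ENSMUSG00000027082, chromosome 2, 84432855 to 84476775, minus strand) stood at 5.71, 5.96 and 6.08 log2 CPM in the sham libraries, in the order above, and at 6.28 and 6.56 in the untreated. It stood at 6.54 and 6.34 with rivaroxaban, at 6.15 and 5.83 with dabigatran and at 6.98 and 6.64 with aPC. Both aPC libraries lay above the 9 others, the sham and dabigatran libraries overlapped at the low end, and the untreated and rivaroxaban libraries overlapped between them.

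Tfpi rose by 0.89 ± 0.17 in aPC against sham hearts (95% interval 0.52 to 1.27, adjusted p = 0.0361), a ratio of 1.86, and by 0.82 ± 0.19 in aPC against dabigatran hearts (95% interval 0.41 to 1.23, adjusted p = 0.0129), a ratio of 1.76. In untreated against sham hearts it differed by 0.50 ± 0.17 (adjusted p = 0.0797), opposite in sign to F3. Against untreated, Tfpi differed by 0.02 ± 0.19 with rivaroxaban (95% interval -0.39 to 0.43), by -0.43 ± 0.19 with dabigatran (adjusted p = 0.147) and by 0.39 ± 0.19 with aPC (adjusted p = 0.153). The order of group means was aPC (6.81 ± 0.25, SD, n = 2), rivaroxaban (6.44 ± 0.14, SD, n = 2), untreated (6.42 ± 0.20, SD, n = 2), dabigatran (5.99 ± 0.23, SD, n = 2) and sham (5.92 ± 0.19, SD, n = 3), and no 2 neighbours differed beyond the threshold (adjusted p = 0.282, 0.952, 0.147 and 0.791). Over the 5 groups Tfpi passed the F test (adjusted p = 0.0169), and it was not called without aPC-791 (adjusted p = 0.0661). The call against sham was lost without any single sham, rivaroxaban or aPC library, with adjusted p from 0.0749 (without Riva-319) to 0.383 (without aPC-791), and in voom on the recovered reads (0.0515). The call against dabigatran was lost without Dabi-204 (0.0673) or aPC-791 (0.100); over all alternatives its adjusted p ran from 0.00590 to 0.100.

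The balance of tissue factor to its inhibitor was lowest in untreated hearts and highest in sham hearts. The log2 CPM of F3 minus that of Tfpi does not depend on the size of a library. It was -1.19, -1.29 and -1.90 in the sham libraries, -2.95 and -2.74 in the untreated, -2.08 and -2.28 with rivaroxaban, -2.20 and -1.86 with dabigatran and -2.86 and -2.05 with aPC. The untreated libraries lay below all sham, rivaroxaban and dabigatran libraries, while aPC-791 lay between the 2 untreated ones. Per kilobase of annotated exon, Tfpi messenger RNA was 1.05, 1.13 and 1.73 times as abundant as F3 messenger RNA in the sham libraries, and 3.58 and 3.09 times in the untreated. An exact permutation test of the F statistic over the 5 groups, with 415800 arrangements of the 11 libraries, gave p = 0.0344. This test was chosen with earlier results of these data known, so its p is not independent evidence. Among the 4 groups other than sham the exact permutation p was 0.314, and leaving out 1 library gave between 0.0126 and 0.110. It was over the threshold without either library of the untreated, rivaroxaban or dabigatran group and without Sham_003 or Sham_006.

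**Figure D2:**
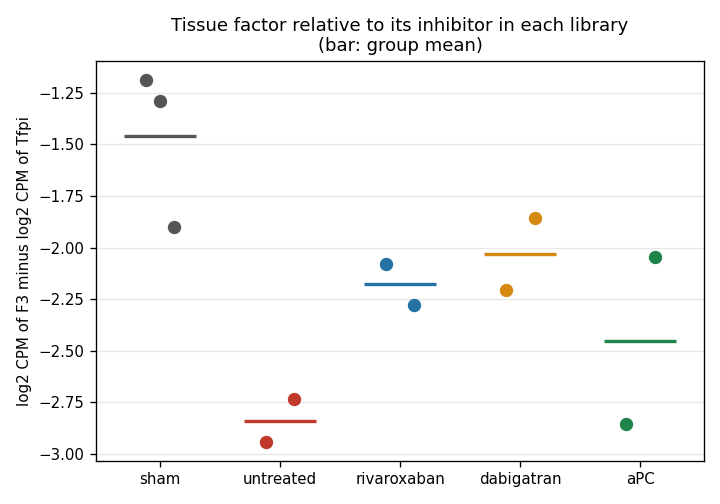
Difference between the log2 CPM of F3 and the log2 CPM of Tfpi (y axis) in each library (points) by group (x axis), with a bar at the group mean. The sham libraries lie between -1.90 and -1.19 and the untreated libraries at -2.95 and -2.74.

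Vwf was lowest in untreated hearts and was higher with dabigatran and with aPC. Vwf (ENSMUSG00000001930, chromosome 6, 125546774 to 125686679, plus strand) stood at 7.05, 6.87 and 6.84 log2 CPM in the sham libraries and at 6.13 and 6.38 in the untreated. It stood at 6.64 and 6.71 with rivaroxaban, at 6.88 and 7.02 with dabigatran and at 6.91 and 6.73 with aPC. The 2 untreated libraries lay below all 9 others, and the ranges of sham, dabigatran and aPC libraries overlapped.

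Vwf fell by 0.66 ± 0.13 from sham to untreated hearts (95% interval -0.94 to -0.39, adjusted p = 0.0139), so that the sham level was 1.59 times the untreated. Against untreated it rose by 0.70 ± 0.14 with dabigatran (adjusted p = 0.0103) and by 0.57 ± 0.14 with aPC (adjusted p = 0.0223), ratios of 1.62 and 1.48. With rivaroxaban it differed by 0.42 ± 0.14 (adjusted p = 0.0820). These 3 comparisons share the untreated libraries. Against sham, Vwf differed by 0.03 ± 0.13 with dabigatran (95% interval -0.25 to 0.31) and by -0.10 ± 0.13 with aPC (95% interval -0.38 to 0.18). The sign of the dabigatran value turned under median centring, quantile normalization and library weights. The order of group means was dabigatran (6.95 ± 0.09, SD, n = 2), sham (6.92 ± 0.12, SD, n = 3), aPC (6.82 ± 0.13, SD, n = 2), rivaroxaban (6.67 ± 0.05, SD, n = 2) and untreated (6.25 ± 0.17, SD, n = 2). Neighbours did not differ beyond the threshold (adjusted p = 0.885, 0.736, 0.586 and 0.0820). Vwf passed the F test over the 5 groups (adjusted p = 0.0162, and 0.0105 to 0.0400 in the alternatives), as did 30.2% of all genes tested.

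Leaving out Sham_003 ended the call of Vwf against sham (adjusted p = 0.0527, range over alternatives 0.00873 to 0.169). Without aPC-791 or aPC-792 the aPC call was lost (0.125 and 0.0921, range 0.0170 to 0.191), and the dabigatran call held without any single library. A fit of only the 2 groups compared, and library weights, which gave the untreated libraries 0.242 each, ended all 3 of these calls. Endothelial markers moved in both directions beside Vwf: of 10, 3 rose and 3 fell from sham to untreated, and the summed level of the list was 1250 to 1281 CPM in sham and 1358 to 1480 CPM in untreated libraries. Against untreated, 1 rose and 3 fell with dabigatran (1142 to 1245 CPM) and 2 rose and 4 fell with aPC (1098 to 1154 CPM), and no marker of the list was at 0 in any library. Of all genes tested, 10.6% were called in untreated against sham, and 13.8% and 17.6% with dabigatran and aPC against untreated. Sum and median of the list differed in direction: the sum was higher in untreated than in sham libraries, while 4 of 10 markers had positive differences and the median difference was -0.30. Against untreated the median was -0.14 with dabigatran and -0.26 with aPC, and the part of endothelial cells in the Vwf levels was not tested. In bulk tissue, fewer cells of a type and less RNA per cell cannot be told apart.

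F13a1 had the widest range of the 5 genes and was called in none of the comparisons when all 11 libraries were used with equal weight. F13a1 (ENSMUSG00000039109, chromosome 13, 36867178 to 37050244, minus strand) stood at 7.17, 6.70 and 7.19 log2 CPM in the sham libraries and at 6.84 and 5.83 in the untreated. It stood at 6.80 and 6.20 with rivaroxaban, at 7.16 and 6.88 with dabigatran and at 7.56 and 6.99 with aPC. The highest and lowest of the 11 libraries were 3.30-fold apart, and Cont_19 alone lay below 6. The strand setting of the counting is not given in the sources used here, and GENCODE places the antisense gene Gm30489 over exons of F13a1; no other member shares its span with another annotated gene.

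F13a1 differed by -0.69 ± 0.30 in untreated against sham hearts (adjusted p = 0.149). Against untreated it differed by 0.16 ± 0.33 with rivaroxaban (adjusted p = 0.765), by 0.68 ± 0.33 with dabigatran (adjusted p = 0.185) and by 0.94 ± 0.33 with aPC (adjusted p = 0.0717). Without Cont_17 the differences with dabigatran and aPC were 1.19 and 1.44 and both passed (adjusted p = 0.0131 and 0.00474), as did the difference of -1.19 from sham (0.00916) and the F test over the 5 groups (0.0133 against 0.135 with all libraries), where the lone untreated library is assumed to vary like the other groups. Library weights gave a call in aPC against rivaroxaban (adjusted p = 0.0346). Group means ran from 7.28 ± 0.40 (SD, n = 2) with aPC, through 7.02 ± 0.27 (SD, n = 3) in sham, 7.02 ± 0.20 (SD, n = 2) with dabigatran and 6.50 ± 0.42 (SD, n = 2) with rivaroxaban, to 6.33 ± 0.71 (SD, n = 2) in untreated hearts. Neighbours in this order did not differ beyond the threshold (adjusted p = 0.712, 0.999, 0.282 and 0.765). Resident macrophage markers are of a cell type that makes F13a1. Of these, 7 of 10 fell from sham (371 to 434 CPM summed) to untreated (203.1 to 298 CPM). Against untreated, 4, 6 and 7 of 10 rose with rivaroxaban (265 to 330 CPM), dabigatran (342 to 402 CPM) and aPC (416 to 476 CPM). Monocyte markers, of another such cell type, summed to 277 to 416 CPM in sham, 127 to 139 in untreated, 206 to 257 with rivaroxaban, 532 to 562 with dabigatran and 411 to 479 with aPC. Of these 8, 2 fell from sham to untreated, and 2, 4 and 1 rose with rivaroxaban, dabigatran and aPC against untreated. Of all genes tested, 10.6% were called in untreated against sham, and 8.47%, 13.8% and 17.6% with rivaroxaban, dabigatran and aPC against untreated. None of the markers in both lists was at 0 in any library, and their part in the F13a1 levels was not tested. Platelet markers summed to only 11.5 to 28.9 CPM over 10 genes, of which Gp9, Gp5 and Treml1 had 0 reads in at least 1 library.

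Pros1 varied least. Pros1 (ENSMUSG00000022912, chromosome 16, 62854307 to 62929346, plus strand) stood at 5.30, 5.09 and 5.22 log2 CPM in the sham libraries and at 5.37 and 4.98 in the untreated. It stood at 5.11 and 5.20 with rivaroxaban, at 5.49 and 5.58 with dabigatran and at 5.50 and 5.07 with aPC. The 11 libraries spanned 1.51-fold, and the dabigatran libraries were at the high end, with aPC-791 just above the lower of them.

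Pros1 differed by -0.03 ± 0.17 in untreated against sham hearts (95% interval -0.40 to 0.34). In hearts given aPC, whose cofactor it encodes, Pros1 differed from untreated by 0.11 ± 0.18 (95% interval -0.29 to 0.51, adjusted p = 0.673). With dabigatran the difference from untreated was 0.36 ± 0.18 (95% interval -0.04 to 0.76, adjusted p = 0.200), and it passed only without Cont_17 (adjusted p = 0.0410). With rivaroxaban it was -0.02 ± 0.18, and the sign turned under quantile normalization. Group means were 5.54 ± 0.06 (SD, n = 2) with dabigatran, 5.29 ± 0.30 (SD, n = 2) with aPC, 5.20 ± 0.11 (SD, n = 3) in sham, 5.17 ± 0.27 (SD, n = 2) in untreated and 5.16 ± 0.07 (SD, n = 2) in rivaroxaban hearts. Neighbours in this order did not differ beyond the threshold (adjusted p = 0.353, 0.839, 0.924 and 0.957), nor did Pros1 pass over the 5 groups (adjusted p = 0.338).

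**Figure D3:**
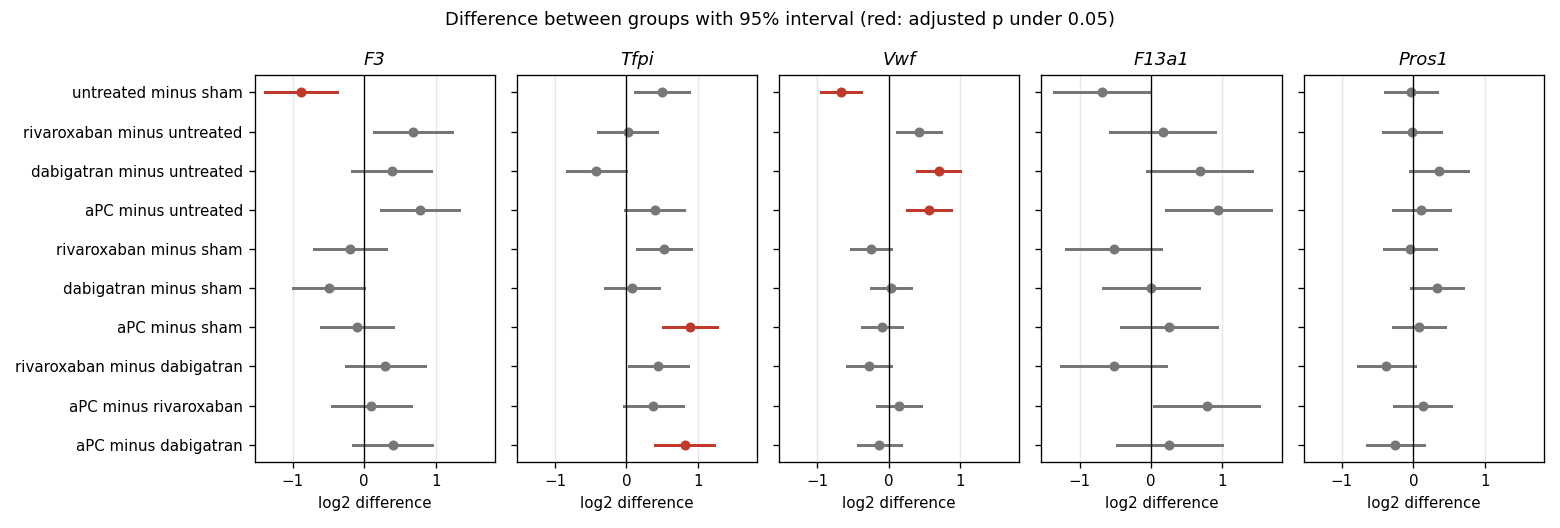
Log2 difference between 2 groups (x axis) for each gene in each of the 10 comparisons (y axis), with points for limma's estimate and lines for its 95% interval; red marks an adjusted p under 0.05. The red intervals are those of F3 and Vwf in untreated minus sham, Vwf in dabigatran and aPC minus untreated, and Tfpi in aPC minus sham and aPC minus dabigatran.

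Counted over the set, 2 of the 5 genes were called in untreated against sham hearts, where 10.6% of all tested genes were called. There 3 members had libraries that did not overlap between the groups, as did 43.5% of all genes, and 4 had an unadjusted limma p under 0.05 (31.9% of all genes). Rivaroxaban against untreated had 0 of 5 called (8.47% of all genes), 2 without overlap (55.5%) and 2 at an unadjusted p under 0.05 (29.5%), F3 and Vwf. Dabigatran against untreated had 1 of 5 called (13.8%), 5 without overlap (48.6%) and 2 at an unadjusted p under 0.05 (31.7%). In aPC against untreated hearts 1 of 5 was called (17.6%), 4 did not overlap (59.2%) and 3 were at an unadjusted p under 0.05 (36.2%). In a set of 5, a count of 1 is near the share of all genes called in the dabigatran and aPC comparisons.

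Against sham, rivaroxaban had 0 of 5 members called, in a comparison that called 0% of all genes. There 2 members did not overlap (32.4% of all genes), and Tfpi alone was at an unadjusted limma p under 0.05 (0.52 ± 0.17, adjusted p = 0.730), as were 761 genes or 5.62%. Dabigatran against sham had 0 of 5 called (18.5% of all genes), 2 without overlap (55.9%) and 0 at an unadjusted limma p under 0.05 (34.1%). F3 stood nearest there (-0.50 ± 0.23, adjusted p = 0.150). In aPC against sham hearts Tfpi was 1 of 5 called (1.17%) and the only member without overlap (47.2%) or at an unadjusted p under 0.05 (17% of all genes).

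Between drugs, rivaroxaban against dabigatran had 0 of 5 called (23.3% of all genes), 5 without overlap (70%) and 1 at an unadjusted limma p under 0.05 (36.8%), which was Tfpi (0.45 ± 0.19, adjusted p = 0.111). For aPC against rivaroxaban, 0 of 5 were called (1.54%), 3 did not overlap (63.5%) and 1 was at an unadjusted p under 0.05 (20.9%), F13a1 (0.78 ± 0.33, adjusted p = 0.215). For aPC against dabigatran, 1 of 5 was called (21.5%), 2 did not overlap (65.4%) and 1 was at an unadjusted p under 0.05 (35.9%), Tfpi in each count of 1. Doses differ between the drugs, and aPC was first given 30 min before surgery.

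Scaled to exon length, which allows genes to be compared, F13a1 was the most abundant member in sham hearts, at 19.5 ± 3.5 RPKM, CPM divided by exon length in kilobases (SD, n = 3). Tfpi followed at 11.1 ± 1.4 RPKM, Pros1 at 9.01 ± 0.68 RPKM, F3 at 8.76 ± 1.49 RPKM and Vwf at 7.54 ± 0.63 RPKM. In untreated hearts Tfpi was first, at 15.7 ± 2.2 RPKM (SD, n = 2), and F13a1 second, at 12.7 ± 6.0 RPKM. F3 and Vwf were last there, at 4.76 ± 1.14 and 4.76 ± 0.58 RPKM. Across the 11 libraries the members did not move as 1 unit: Pearson's r of log2 CPM ran from -0.39 (F3 with Pros1) to 0.63 (F3 with Vwf), and it was -0.10 between F3 and Tfpi. These libraries share groups and depth, so the values are descriptions.

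The genes whose levels followed each member most closely were found among 11419 genes by Pearson's r over the 11 libraries. They are the highest of many values over few libraries that share groups, so they are descriptions. Only positive values are named, and the lowest r for a member ran from -0.94 (F3) to -0.89 (Pros1). For F3 they were Ubqln4 (0.95), Fam84b (0.94) and Kifc3 (0.93). Tfpi was followed by Adk (0.90), Gcat (0.90) and Myo3a (0.89), and Vwf by Rgs10 (0.94), Rab3il1 (0.93) and Cgnl1 (0.93). Wdr82 (0.93), Arl16 (0.92) and Ppp1r3b (0.91) were nearest to F13a1, and the chemokine gene Ccl9 (0.94), Cdc7 (0.92) and Slc35c1 (0.92) to Pros1. No member was among the 3 genes nearest to another.

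The wider clotting system was described from lists chosen with earlier results of these data known. Of 58 tested related genes, 10 rose and 5 fell in untreated against sham hearts, a share to be read beside the 10.6% of all genes called there. The median difference of the 58 was 0.08, against -0.03 for all genes. In the fibrinolysis list the urokinase receptor gene Plaur rose by 2.69 ± 0.34 (adjusted p = 0.00255). The thrombin receptor F2r rose by 0.69 ± 0.18 and F2rl1, the receptor cleaved by trypsin and by the tissue factor complex, fell by 1.41 ± 0.40. Of the genes linked to protein S and its homolog Gas6, Gas6 fell by 0.66 ± 0.17 and its receptor Axl by 0.51 ± 0.13. P-selectin (Selp), which is stored in the same endothelial granules as Vwf, rose by 1.78 ± 0.41 (adjusted p = 0.0242), the opposite direction to Vwf. Among transglutaminase and fibrin-matrix genes 3 of 7 rose and 1 fell, with Thbs1 (thrombospondin) at 2.18 ± 0.39, Lox (lysyl oxidase) at 1.85 ± 0.35 and Vtn (vitronectin) at -1.44 ± 0.27. Of neutrophil markers 6 of 8 rose in the same comparison (median 2.05), while the related genes went in both directions. The neutrophil markers summed to 31.9 to 50.3 CPM in sham and 108 to 165 CPM in untreated libraries. Their part in the values of the related genes was not tested. The 15 calls in all numbered 4, 2 and 9 without Sham_003, Sham_006 and Sham_007, 5 without Cont_19, 24 without Cont_17 and 7 without either rivaroxaban library.

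With dabigatran 15 of the 58 rose and 2 fell against untreated hearts, where 13.8% of all genes were called. The median of the 58 was 0.29, against 0.05 for all genes. Coagulation factor genes had 2 of 4 tested members higher: F7, the enzyme that tissue factor binds, by 1.96 ± 0.51 (adjusted p = 0.0321) and F10, the substrate of that complex, by 2.24 ± 0.60 (adjusted p = 0.0350). Among inhibitors 3 of 5 rose: the annexin gene Anxa5 by 0.87 ± 0.14, the protein C receptor Procr by 1.44 ± 0.39 and Tfpi2, a relative of Tfpi, by 1.65 ± 0.45. In the fibrinolysis list 4 of 8 rose, led by the urokinase gene Plau (2.87 ± 0.29), the serpin gene Serpinb2 (4.84 ± 0.65) and Anxa2 (1.90 ± 0.26), a surface receptor of plasminogen. Fibronectin (Fn1), which the factor XIII enzyme crosslinks to fibrin, rose by 2.64 ± 0.29 (adjusted p = 0.000744). Neutrophil markers were higher in the same libraries (5 of 8 rose; 592 to 1041 CPM summed against 108 to 165 in untreated), and monocyte markers too (4 of 8 rose; 532 to 562 CPM against 127 to 139). Cardiac muscle markers were lower there: 3 of 8 fell, all 8 differences were negative with a median of -0.57, and the sums were 58901 to 59303 CPM against 86501 to 109673 in untreated. Their part in these values was not tested. The 17 calls numbered 6 without Dabi-202.

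Rivaroxaban and aPC hearts had more related genes lower than higher against untreated. With rivaroxaban 2 of the 58 rose and 10 fell (8.47% of all genes called; median of the 58 -0.13, of all genes 0.02), with Plaur at -3.23 ± 0.37, Selp at -2.71 ± 0.45, Thbs1 at -2.98 ± 0.43 and F2r at -0.86 ± 0.19. With aPC 5 rose and 13 fell (17.6% of all genes; median -0.33, of all genes 0.07), with Plaur at -2.62 ± 0.37, Selp at -1.84 ± 0.45 and Thbs1 at -2.40 ± 0.43, while Serpinb2 rose by 3.64 ± 0.65. Neutrophil markers were lower beside them: with rivaroxaban 6 of 8 fell (median -2.73; 18.3 to 41.9 CPM summed), and with aPC 1 of 8 fell (median -0.89; 42.6 to 109 CPM). Their part was not tested. The 12 rivaroxaban calls numbered 2 without Riva-313, 3 without Riva-319 and 19 without Cont_17. The 18 aPC calls numbered 9 without aPC-791 and 2 without aPC-792.

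**Figure D4:**
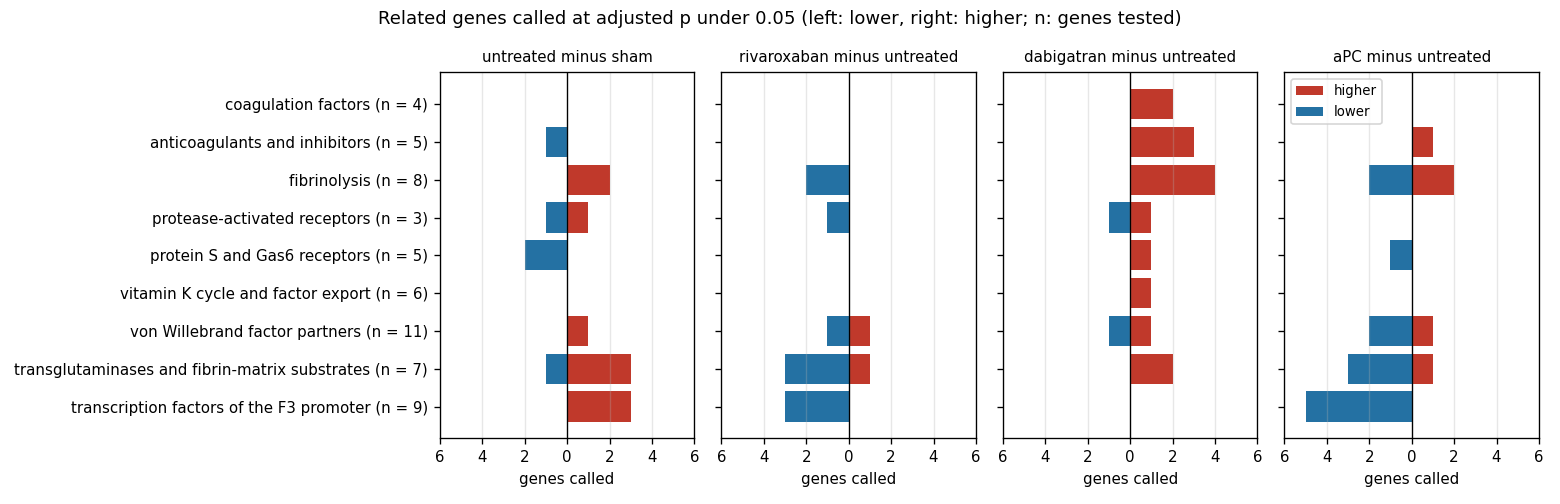
Number of related genes called at an adjusted p under 0.05 (x axis; lower to the left in blue, higher to the right in red) in each list (y axis, with the number of genes tested) for 4 comparisons. Dabigatran against untreated has 4 fibrinolysis genes and 3 inhibitor genes higher, and aPC against untreated has 5 transcription factor genes lower.

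Genes of transcription factors known to act on the F3 promoter were read beside F3 in comparisons that all share the 2 untreated libraries, so their values are set side by side only. Of all genes tested, 10.6% were called in untreated against sham. Against untreated the shares were 17.6% with aPC, 8.47% with rivaroxaban and 13.8% with dabigatran. In untreated against sham hearts, where F3 fell, 3 of 9 rose and 0 fell: the AP-1 genes Fosl1 (1.32 ± 0.28, adjusted p = 0.0200) and Junb (1.06 ± 0.27, adjusted p = 0.0370), and the NF-kB subunit gene Rela (0.56 ± 0.12, adjusted p = 0.0214). With aPC, where the F3 difference was 0.78 ± 0.25 and did not pass, 5 of 9 fell against untreated, led by Junb (-1.50 ± 0.30), Fos (-2.64 ± 0.53) and Fosl1 (-1.49 ± 0.31). With rivaroxaban 3 of 9 fell, Junb (-1.59 ± 0.30), Rela (-0.66 ± 0.13) and Fosl1 (-1.15 ± 0.31), and with dabigatran 0 of 9 were called. Fibroblast markers were lower in untreated (1573 to 2018 CPM summed) than in sham libraries (2327 to 2946 CPM), with 3 of 10 called lower, and stood at 1467 to 2159 CPM with dabigatran, 2514 to 2705 with rivaroxaban and 2640 to 2768 with aPC. Smooth muscle and pericyte markers, of cells around vessels, summed to 1642 to 1764 CPM in sham, 1167 to 1462 in untreated, 1718 to 1768 with rivaroxaban, 1118 to 1353 with dabigatran and 1313 to 1498 with aPC. Of these 10 markers 2 fell from sham to untreated (median -0.65), and against untreated 3 rose with rivaroxaban, 2 rose with dabigatran and 1 rose and 3 fell with aPC. Fibroblast sums, smooth muscle sums and F3 all had their lowest group means in untreated and dabigatran hearts. For smooth muscle and pericyte markers, sum and median differed in direction. Against untreated their median was 0.38 with dabigatran (8 of 10 positive) and -0.07 with aPC, and against sham it was -0.95 with aPC. The part of these cells in the F3 levels was not tested. Cardiac muscle markers had 0 of 8 called between untreated and sham hearts.

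F8, which encodes the factor VIII carried by Vwf and was named for that binding, differed by 0.33 ± 0.18 in untreated against sham hearts (adjusted p = 0.239) and by 0.06 ± 0.20 in dabigatran against untreated (adjusted p = 0.863). Among 6 genes of the vitamin K cycle, which Pros1 needs, and of factor export, 0 were called in untreated against sham hearts. The factor export gene Mcfd2 alone rose with dabigatran against untreated (0.68 ± 0.15, adjusted p = 0.0189). Of the genes in the vitamin K list, 0 were called with rivaroxaban or aPC against untreated. Most liver-made factors were not described: of 14 coagulation factor genes 4 were listed and tested, and the 3 listed of 6 hepatocyte markers summed to 2.41 to 8.71 CPM.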

How the data were processed

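Libraries were made from 500 ng of total RNA by polyA selection and a directional kit, per the labels' protocols. The submitters' processing notes name build mm10 and the tools STAR, edgeR, Trim Galore, FastQC and bcl2fastq. Their versions, and the counter, annotation, strand setting and gene filter, were not given in the sources used here. The deposited values are log2 CPM scaled by the authors with TMM, per the file name. In each library 100% of the values, less the lowest and off the log scale, were whole multiples of 1 step (within 0.05), which gave the reads.

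The test was two-sided limma-trend (limma 3.58.1, R 4.3.3) in 1 fit of 5 group means over 11 libraries (6 residual degrees of freedom) for genes of at least 0 log2 CPM in at least 3 libraries, adjusted over 13541 genes. The procedure was run on simulated data in which each gene had the same spread in every group. The real untreated libraries stood further apart than those of other groups, so the simulation could not test calls that involve them. RPKM used merged exons of GENCODE M21. Members, lists and tests were chosen with earlier results of these data known. The 5 members are always named; of other lists, up to 3 called genes with the smallest p are. One gene that this rule names is not reported here. Alternatives were filters, centring, quantile normalization, no trend, library weights, only 2 groups, voom and leaving out libraries. Replicate numbers are not shared between groups, and no batch is labelled.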

Additional observations from a re-analysis of the deposited data

How the results depend on the processing

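With 2 or 3 libraries a group, calls of single genes depended on single libraries. Called members numbered 1 without the mean-variance trend and 0 with library weights or in a fit of 2 groups for untreated against sham. They numbered 0 with library weights or 2 groups for dabigatran and for aPC against untreated, and 0 without the trend or in voom for aPC against sham. Quantile normalization called 1 for rivaroxaban against untreated and 1 for rivaroxaban against dabigatran, and library weights called 1 for rivaroxaban against sham and 1 for aPC against rivaroxaban; the cause was not tested. Leaving out 1 library gave 0 to 3 called members for untreated against sham, 1 to 3 for dabigatran and 0 to 2 for aPC against untreated, 0 to 1 for aPC against sham and 0 to 1 for aPC against dabigatran. It gave 1 to 3 for the F test over the groups. The exact permutation p for F3 minus Tfpi was 0.314 without the sham group and 0.0126 to 0.110 without 1 library. No called difference of a member changed sign under any of the 19 alternatives, but most of these could not turn it. In each called difference the libraries of the groups did not overlap, so leaving out 1 library could not change the sign. Filters, no trend and a fit of 2 groups left the estimate as it was.

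Differences that passed no test changed sign as follows. Median centring, which moved the median difference of all genes by up to 0.134 (quantile normalization by up to 0.128), gave -0.014 for Tfpi and -0.057 for Vwf in dabigatran against sham, and 0.0045 for Vwf in aPC against dabigatran. Quantile normalization gave 0.027 for Pros1 in rivaroxaban against untreated and -0.0078 for Vwf in dabigatran against sham, where library weights gave -0.019. Without 1 library, Pros1 ran from -0.22 to 0.16 in untreated against sham, from -0.21 to 0.17 in rivaroxaban and -0.10 to 0.32 in aPC against untreated, from -0.10 to 0.0046 in rivaroxaban and -0.13 to 0.30 in aPC against sham, and from -0.083 to 0.34 in aPC against rivaroxaban. Likewise Tfpi ran from -0.12 to 0.16 in rivaroxaban against untreated and from -0.086 to 0.24 in dabigatran against sham, and Vwf from -0.034 to 0.099 in the latter. F13a1 ran from -0.34 to 0.66 in rivaroxaban against untreated, from -0.16 to 0.14 in dabigatran and -0.027 to 0.54 in aPC against sham, and from -0.026 to 0.54 in aPC against dabigatran. F3 ran from -0.33 to 0.13 in aPC against sham and from -0.13 to 0.33 in aPC against rivaroxaban. Each of the 5 genes had at least 325 reads in every library, and the part of depth in these changes was not tested. No paired analysis was possible because the groups share no replicate number.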
